A study of Mus musculus with 28 samples.

Results

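Tumours that arose in mice with mutant PIK3CA switched on in basal mammary cells were compared with normal basal mammary cells. The 2 groups hold 7 of the 28 arrays of the series, all arrays labelled as K5PIK tumours (n = 3) and all arrays of K5YFP basal cells (n = 4), and they were described across all genes. K5PIK tumours came from mice carrying K5CREERT2, the conditional PIK3CA-H1047R allele and the RosaYFP reporter. Normal basal cells came from K5CREERT2/RosaYFP mice, and were taken 8 weeks (2 arrays) or 10 months (2 arrays) after tamoxifen. Cells sorted from the basal and luminal gates of K5CREERT2/PIK3CA-H1047R/RosaYFP mice 10 months after tamoxifen (2 arrays each) and tumours from mice in which the same mutant was driven by K8CREERT2, named K8PIK tumours (7 arrays), served for further comparisons. Levels in normal luminal cells are from the luminal gate of K8CREERT2/RosaYFP mice at 8 weeks and 10 months (2 arrays each), and a second set of lineage genes from the basal and luminal gates of K8CREERT2/PIK3CA-H1047R/RosaYFP mice at 8 weeks (2 arrays each). The series also holds K8PIKp53 tumours, in which p53 was deleted (2 arrays). They were not compared here, but entered the fit to all 28 arrays that gave the p-values. The labels give all the non-tumour cells as YFP+. All mice were female, carried RosaYFP and a tamoxifen-dependent Cre, and received 3 injections of 5 mg tamoxifen from 4 to 5 weeks of age, so the normal cells also went through Cre activation. The labels give no time after tamoxifen for the tumours. Nor do they say whether tumour cells were gated on YFP, or whether arrays of a group came from separate mice, so p-values measure the spread between these arrays.

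PIK3CA encodes the catalytic subunit p110alpha of PI3-kinase, which makes the membrane lipid that recruits AKT, and H1047R is an activating change in its kinase domain. The mammary epithelium has an outer basal layer of contractile myoepithelial cells, marked by keratins 5 and 14 and the transcription factor p63, and an inner luminal layer, marked by keratins 8 and 18, which holds hormone-sensing cells and milk-producing lineages. The K5 promoter drives Cre in the basal layer and the K8 promoter in the luminal layer. The question was which genes differ between the tumours and cells of the layer in which the mutant had been switched on.

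Values are deposited log2 expression levels from Affymetrix arrays, so a difference of 1 is a factor of 2. Differences are tumours minus normal basal cells (the mean of the 8-week and 10-month groups), with the SE and a Benjamini-Hochberg adjusted p from limma fitted to all 28 arrays. A gene was called when its adjusted p was under 0.05, and only called genes are said to have risen or fallen. Array medians lay between 4.40 and 4.50, and 40% of probe sets lay below 3.89 to 3.99 on each array, levels referred to here as dim. Over the 13663 genes tested the arrays of the tumours correlated with each other at 0.963 to 0.971, the 8-week basal arrays at 0.977 and the 10-month basal arrays at 0.987.

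Between tumours and normal basal cells 4102 genes were called, which is 30.0% of those tested. Of these, 2124 were higher in tumours (15.5%) and 1978 were lower (14.5%). At least 2-fold changes were found for 932 genes higher in tumours (6.82%) and 867 lower (6.35%), and at least 4-fold changes for 203 higher (1.49%) and 160 lower (1.17%). The median difference over all genes was 0.04. Of the called genes, 3494 (25.6% of genes tested) had no overlap between the 3 tumour and the 4 basal arrays. The count of called members of each gene list below is to be read against the shares over all genes, 15.5% higher and 14.5% lower. The lists and their members were chosen with earlier results of these data known, so these counts describe the lists and do not test them.

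Of 16 tested genes that define basal cells 8 fell in the tumours and none rose. Krt14, the keratin partner of Krt5, was at 7.57, 7.04 and 9.04 in tumours 1, 2 and 3, against 11.71 and 11.59 at 8 weeks and 11.87 and 11.92 at 10 months in normal basal cells. Its difference was -3.89 ± 0.58 (adjusted p = 9.33e-05), a 14.9-fold lower level, and the highest tumour lay more than 2 log2 units below the lowest basal array. Krt5 itself was at 9.93, 9.56 and 10.03 in tumours, against 11.36, 11.56, 11.45 and 11.54 in normal basal cells. The groups did not overlap, but the difference of -1.63 ± 0.77 was not called (adjusted p = 0.117) in the fit that takes its spread from all arrays, where Krt5 ranged from 6.86 to 11.94 over the K8PIK tumours. In a fit to the arrays compared it was called (adjusted p = 0.000337). Trp63, which encodes p63, was at 7.31, 6.92 and 7.43 in tumours, against 9.01, 9.41, 9.64 and 9.41 in normal basal cells. It fell by 2.15 ± 0.64 (adjusted p = 0.016), but was not called with tumour 2 left out (adjusted p = 0.0558), against the 8-week arrays alone (adjusted p = 0.0968) or with the endothelial covariate described below (adjusted p = 0.222). Acta2, smooth muscle actin, was at 9.85, 9.10 and 9.78 in tumours, against 11.22, 11.39, 11.61 and 11.60 in normal basal cells, with a difference of -1.88 ± 0.68 (adjusted p = 0.0412) that leaving out any of the 7 arrays moved past the threshold (adjusted p 0.0704 to 0.132). Both keratins, Trp63 and Acta2 remained well above the dim range in the tumours, but normal luminal cells were above that range too. These averaged 8.43 (8 weeks) and 7.40 (10 months) for Krt14, 7.77 and 7.14 for Krt5, 5.36 and 4.90 for Trp63, and 7.85 and 7.28 for Acta2. Each tumour lay above these averages for Krt5, Trp63 and Acta2, while tumours 1 and 2 lay below the 8-week average for Krt14.

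Luminal keratins were high in both groups. Krt18 was at 11.49, 11.57 and 11.66 in tumours, against 10.85 and 10.74 at 8 weeks and 9.63 and 10.29 at 10 months in normal basal cells, a rise of 1.20 ± 0.29 (adjusted p = 0.00389) that was not called against the 8-week arrays alone (adjusted p = 0.15). Its partner Krt8 was at 11.74, 11.83 and 11.79 in tumours, against 11.52, 11.41, 10.78 and 11.17, a difference of 0.57 ± 0.23 that was not called (adjusted p = 0.0693). The normal basal arrays thus carried luminal keratin mRNA, with higher values on both 8-week arrays than on both 10-month arrays. The mean of 17 luminal identity genes was 10.03 to 10.10 in tumours, against 8.90 and 9.20 at 8 weeks and 7.56 and 8.22 at 10 months in normal basal cells. No gene was called between 10-month and 8-week basal cells by limma (0% of those tested, 1629 at an unadjusted p under 0.05), but results on luminal genes depend on which basal arrays stand on the other side, so counts of luminal lists are also given against each age alone.

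Genes that separate the basal and luminal gates of K5PIK glands gave a scale for the tumours. The sets were picked by the contrast between the gates, in the fit that takes its spread and its filter on dim genes from all 28 arrays, the 7 compared included. Between basal-gate and luminal-gate cells of K5PIK glands 1764 genes (12.9%) were called, and 804 were at least 2-fold higher in the basal gate and 469 at least 2-fold higher in the luminal gate (7.70% and 5.21% of genes were called in each direction at any size). Of the 804 basal-gate genes, 480 fell in tumours (59.7%, against 14.5% of all genes), 10 rose and 314 were not called, with a median difference of -1.06. Of the 469 luminal-gate genes, 338 rose (72.1%, against 15.5% of all genes), 1 fell and 130 were not called, with a median of 1.26. Against the 8-week arrays alone 295 of the basal-gate genes fell (36.7%) and 178 of the luminal-gate genes rose (38%), and against the 10-month arrays alone 476 and 338. With the endothelial covariate 249 fell (31%) and 253 rose (53.9%). Sets picked in a fit to the other 21 arrays gave 439 of 689 basal-gate genes lower (63.7%) and 287 of 381 luminal-gate genes higher (75.3%). Averaged per array, the basal-gate genes were at 6.07, 6.09 and 6.31 in tumours, against 6.98 to 7.50 in normal basal cells. The luminal-gate genes were at 7.60, 7.74 and 7.57 in tumours, against 5.92 to 6.69 in normal basal cells. K5PIK luminal-gate cells, which helped to define the sets, were at 5.67 and 5.59 for the basal-gate genes and 7.85 and 7.94 for the luminal-gate genes, so each tumour lay between normal basal and K5PIK luminal-gate cells, and nearer to the luminal-gate cells, on both scales.

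**Figure D1:**
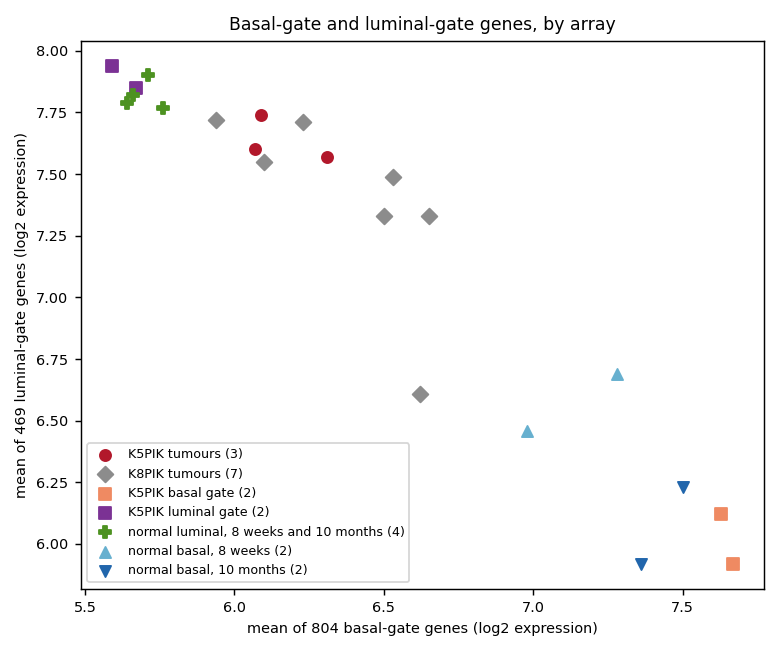
Mean log2 expression of the 804 basal-gate genes (horizontal axis) and the 469 luminal-gate genes (vertical axis) on each array, with 1 point per array and the number of arrays per group in the legend. The 3 K5PIK tumours (6.07 to 6.31 and 7.57 to 7.74) sit apart from the 4 normal basal arrays (6.98 to 7.50 and 5.92 to 6.69), among the K8PIK tumours and close to the luminal cells; the K5PIK gate arrays defined the 2 gene sets.

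The median difference over the 16 basal identity genes was -0.91, and 4 of them fell against the 8-week arrays alone. Cdh3, P-cadherin, was at 5.81, 5.84 and 6.30 in tumours, against 9.15, 9.25, 9.90 and 9.46 in normal basal cells, and fell by 3.46 ± 0.35 (adjusted p = 3.76e-06). Snai2, the transcription factor Slug, was at 4.36, 4.31 and 4.63 in tumours, against 6.45 and 6.27 at 8 weeks and 7.23 and 7.32 at 10 months, and fell by 2.38 ± 0.22 (adjusted p = 2.79e-06). All 3 tumours lay below all 4 normal basal arrays for both genes, and both calls held under each alternative setting tried. Of 15 contractile genes of myoepithelial cells 7 fell and none rose, with a median of -1.12. Against the 8-week arrays alone 3 fell, against the 10-month arrays alone 4, and with the endothelial covariate 2. Actg2, enteric smooth muscle actin, fell by 1.89 ± 0.39 (adjusted p = 0.00124), and Tpm2, beta-tropomyosin, fell by 2.06 ± 0.51 (adjusted p = 0.00446). Neither was called with the endothelial covariate (adjusted p 0.0621 for Actg2 and 0.155 for Tpm2), nor was Tpm2 against the 8-week arrays alone (adjusted p = 0.0562).

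Of 10 hemidesmosome and laminin-332 genes, which attach basal cells to the basement membrane, 7 fell and none rose, with a median of -1.09. Against the 8-week arrays alone, and with the endothelial covariate, 4 of the 10 fell. Col17a1, the transmembrane collagen of hemidesmosomes, was at 6.39, 6.34 and 7.15 in tumours, against 10.22, 10.13, 10.67 and 10.50 in normal basal cells, a fall of 3.75 ± 0.75 (adjusted p = 0.000917). Itga3, a laminin-binding integrin subunit, was at 8.38, 8.56 and 8.29 in tumours, against 10.15, 9.79, 10.78 and 10.58, and fell by 1.91 ± 0.24 (adjusted p = 1.79e-05). Lamb3, a chain of laminin-332, fell by 2.36 ± 0.46 (adjusted p = 0.000717). None of these 3 genes overlapped between groups, and Col17a1 and Lamb3 lost their calls with the endothelial covariate (adjusted p 0.067 and 0.0597). Itga9, an integrin subunit that binds tenascin and osteopontin, fell further, to 3.89, 4.27 and 4.88 in tumours, against 7.54, 8.11, 7.54 and 8.01 in normal basal cells (-3.45 ± 0.43, adjusted p = 1.76e-05). Itgb6, the epithelial partner of the alpha v integrin, was the only 1 of 11 integrin genes to rise, by 1.69 ± 0.49 (adjusted p = 0.0129), a call lost without tumour 2 (adjusted p = 0.0555), without replicate 1 of the 10-month basal cells (adjusted p = 0.0597), against the 8-week arrays alone (adjusted p = 0.304) and with the endothelial covariate (adjusted p = 0.0768).

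Of 17 luminal identity genes 10 rose and none fell, with a median of 1.89. Krt7, a simple-epithelial keratin, was at 10.15, 10.74 and 10.79 in tumours, against 8.36 and 8.90 at 8 weeks and 6.40 and 7.86 at 10 months in normal basal cells, a rise of 2.68 ± 0.51 (adjusted p = 0.000669). Ehf, an epithelial ETS factor, was at 8.75, 9.23 and 8.85 in tumours, against 6.04, 6.75, 4.93 and 5.33, and rose by 3.18 ± 0.72 (adjusted p = 0.00238). The claudin gene Cldn3 was at 10.82, 10.83 and 10.86 in tumours, against 9.00, 9.51, 6.55 and 7.76, and rose by 2.63 ± 0.53 (adjusted p = 0.00102). No tumour overlapped a normal basal array for these genes. Against the 8-week arrays alone 1 of the 17 genes was called, Krt7 (adjusted p = 0.0447), and against the 10-month arrays alone 12 were, with Ehf and Cldn3 not called at 8 weeks (adjusted p 0.057 and 0.109).

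Of 12 luminal progenitor genes 4 rose and none fell, with a median of 1.11; 2 rose against the 8-week arrays alone, 4 against the 10-month arrays alone and 3 with the endothelial covariate. Elf5, the transcription factor of the alveolar lineage, was at 7.76, 7.14 and 7.23 in tumours, against 4.72, 4.55, 3.43 and 3.75 in normal basal cells, a rise of 3.27 ± 0.67 (adjusted p = 0.00115). Kit, the stem cell factor receptor of luminal progenitors, was at 5.61, 6.47 and 6.33 in tumours, against 3.88, 3.89, 3.07 and 3.55, all dim, and rose by 2.54 ± 0.55 (adjusted p = 0.00166). Both were called against either age of basal cell. In the hormone-sensing list of 10 genes, 4 rose and none fell, with a median of 1.01; 2 rose against the 8-week arrays alone, 5 rose and 1 fell against the 10-month arrays alone, and 1 rose with the endothelial covariate. Foxa1, the pioneer factor of oestrogen receptor binding, was at 7.36, 7.74 and 8.11 in tumours, against 3.94, 4.56, 3.84 and 4.96, and rose by 3.41 ± 0.77 (adjusted p = 0.00225; 0.018 against the 8-week and 0.0089 against the 10-month arrays alone, and 0.0525 with the endothelial covariate). Esr1, the oestrogen receptor, was at 8.98, 9.50 and 9.32 in tumours, against 7.71, 8.34, 7.56 and 7.83, a rise of 1.41 ± 0.41 (adjusted p = 0.0129) that was not called without tumour 2 (adjusted p = 0.0507), without replicate 1 of the 8-week cells (adjusted p = 0.0536), against the 8-week arrays alone (adjusted p = 0.101) or with the endothelial covariate (adjusted p = 0.145). Wnt4, a Wnt ligand made by hormone-sensing cells, rose by 2.06 ± 0.49 (adjusted p = 0.00336; 0.046 against the 8-week and 0.00544 against the 10-month arrays alone). Pgr, the progesterone receptor, was at 7.15, 6.52 and 8.04 in tumours, against 5.65, 6.43, 4.88 and 5.30, and its difference of 1.68 ± 0.68 was not called (adjusted p = 0.069). Each tumour lay above all normal basal arrays for Elf5, Kit, Foxa1 and Esr1, and arrays of pooled cells do not show whether the same cells carry all 4.

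**Figure D2:**
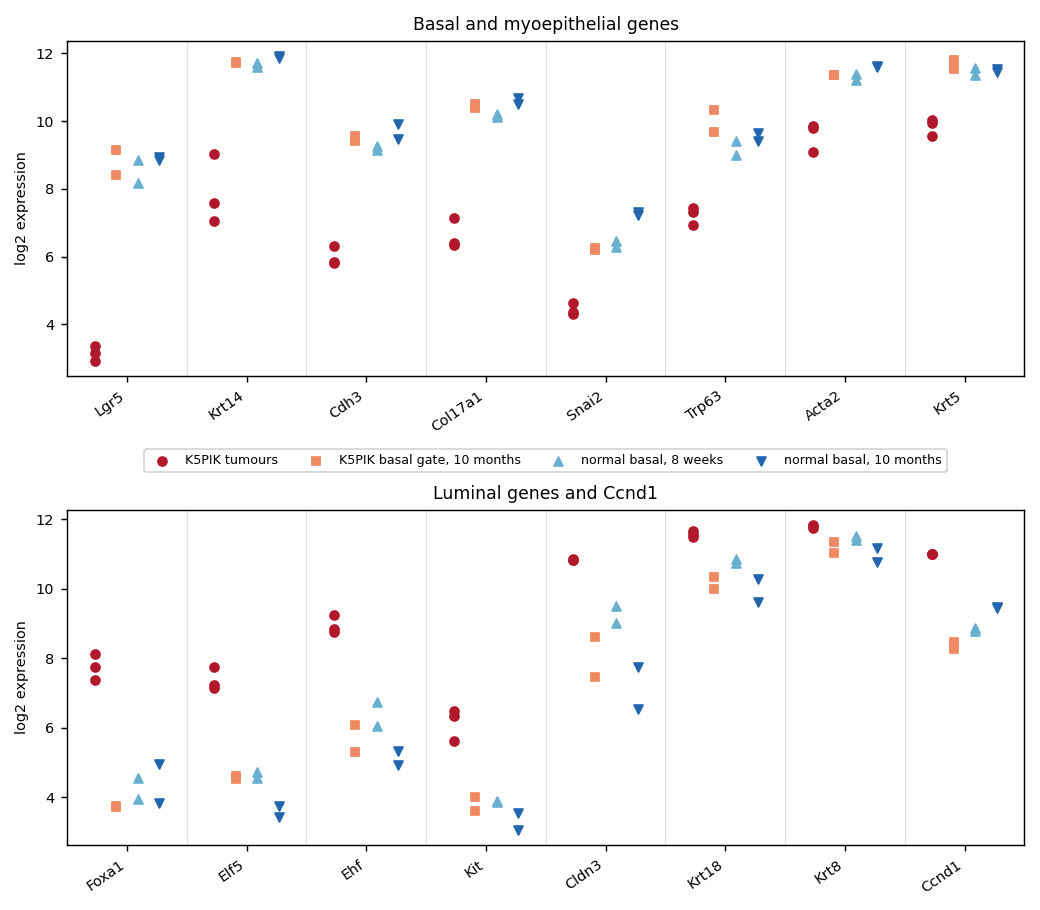
Log2 expression (vertical axis) of 8 basal or myoepithelial genes (upper panel) and of 7 luminal genes with Ccnd1 (lower panel), with 1 point per array for K5PIK tumours (3), K5PIK basal-gate cells (2), and normal basal cells at 8 weeks (2) and 10 months (2). The tumours lie below all normal basal arrays for each gene of the upper panel, and above them for each gene of the lower panel; Krt5 and Krt8 did not pass the test.

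Of 14 tight junction genes 6 rose and 2 fell, with a median of 1.50. Against the 8-week arrays alone 3 rose and 2 fell, and against the 10-month arrays alone 7 rose and 2 fell. Cgn, the junction adaptor cingulin, was at 6.69, 7.47 and 7.69 in tumours, against 5.26, 5.41, 4.28 and 4.79 in normal basal cells, and rose by 2.35 ± 0.48 (adjusted p = 0.00106; 0.0306 against the 8-week and 0.00131 against the 10-month arrays alone). Marveld3, a membrane protein of tight junctions, was at 6.67, 6.84 and 6.50 in tumours, against 4.90, 5.07, 3.70 and 4.40, and rose by 2.15 ± 0.32 (adjusted p = 7.89e-05; 0.00803 and 8.16e-05 against the same 2 references). Cldn5, the claudin of endothelium, and Cldn12 fell, by 1.26 ± 0.24 (adjusted p = 0.000706) and 1.27 ± 0.27 (adjusted p = 0.00141). In the milk list 4 of 14 genes rose and none fell, but the median was 0.27, no member was called against the 8-week arrays alone, and 6 rose against the 10-month arrays alone. Csn3, kappa-casein, was at 11.73, 11.36 and 11.07 in tumours, against 10.32 and 10.11 at 8 weeks and 8.14 and 9.23 at 10 months (1.94 ± 0.65, adjusted p = 0.0304). The call of Csn3 was lost with 6 of the 7 arrays left out in turn (adjusted p 0.0507 to 0.109), the exception being replicate 2 of the 10-month cells, and with the endothelial covariate (adjusted p = 0.0788).

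Squamous keratins split. Krt6a, an inducible keratin of suprabasal and luminal progenitor cells, was at 8.59, 9.97 and 9.65 in tumours, against 7.37, 7.38, 6.61 and 6.22 in normal basal cells, and rose by 2.51 ± 0.61 (adjusted p = 0.0042; 0.0751 against the 8-week arrays alone). Krt16, its usual partner in stressed epidermis, was at 6.85, 6.77 and 7.63 in tumours, against 9.32, 9.33, 9.79 and 10.06, and fell by 2.54 ± 0.53 (adjusted p = 0.00128). The groups overlapped for neither gene, and no other gene of the 16 on the squamous list was called. Among 17 developmental regulators Msx2 rose (1.30 ± 0.26, adjusted p = 0.00106) and Sox4 and Runx1 fell (-1.14 ± 0.17, adjusted p = 9.45e-05, and -1.36 ± 0.28, adjusted p = 0.00115). None of 14 mesenchymal transition genes was called by limma (2 at an unadjusted p under 0.05), and their median was 0.46.

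The largest rises were Smim38, which encodes a small predicted membrane protein, and Ido1, the enzyme that starts tryptophan breakdown. Smim38 was at 9.87, 9.70 and 9.30 in tumours, against 3.89, 4.46, 3.36 and 3.36 in normal basal cells, where 3 of 4 arrays were dim, a difference of 5.85 ± 1.08 (adjusted p = 0.000507). With each dim value raised to the 40th percentile of its array, the difference was 46-fold. Ido1 was at 10.00, 10.04 and 10.76 in tumours, against 4.24, 5.83, 3.73 and 3.97, a difference of 5.82 ± 1.10 (adjusted p = 0.000628), or 54.2-fold with the 1 dim basal value raised likewise. Normal luminal cells averaged 5.66 (8 weeks) and 6.87 (10 months) for Smim38 and 7.20 and 8.38 for Ido1. Arg1, the arginase that splits arginine to ornithine and urea, was at 9.16, 9.46 and 10.24 in tumours, against 5.80, 5.42, 4.10 and 4.77, and rose 24.2-fold (4.60 ± 0.74, adjusted p = 0.000162). In normal luminal cells Arg1 averaged 7.78 and 8.57, below each tumour. K5PIK luminal-gate cells were at 6.46 and 9.84 for Arg1, and the higher value lay above tumours 1 and 2. They were at 7.59 and 9.53 for Ido1 and at 5.40 and 6.87 for Smim38, below each tumour. Tmprss2, a membrane serine protease of luminal epithelia, rose 12.7-fold and Clic6, a chloride channel family member, 13-fold, with no overlap for either, and by the mean of its probe sets Tmprss2 differed by 2.71. Further rises among the 15 largest were Cstdc2, Ctsr, Upk3a, Fam25c, Fgb, AW112010, Gdpd3, Apod, Clca1 and Tlcd4, at 3.67 to 4.53 on the log2 scale. Of these, Cstdc2, Fam25c, AW112010, Apod, Clca1 and Tlcd4 were not called with the endothelial covariate (adjusted p 0.0641 to 0.149). Fam25c, AW112010, Apod and Tlcd4 were not called against the 8-week arrays alone either (adjusted p 0.0687 to 0.113). The mean of probe sets gave 1.91 for Clca1 and 2.29 for Tlcd4. Leaving out a tumour moved Ctsr (4.29) to between 3.64 and 5.58, and Cstdc2 (4.53) was at 3.87 without tumour 1. The call of Fgb, fibrinogen beta, was lost without replicate 1 of the 10-month cells (adjusted p = 0.0706), replicate 1 of the 8-week cells (0.0585), tumour 1 (0.0528) or tumour 2 (0.055). It was also lost against the 8-week arrays alone (adjusted p = 0.186) and with the endothelial covariate (adjusted p = 0.259), as was Upk3a with that covariate (adjusted p = 0.0723).

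Among the falls Lgr5, a receptor for R-spondin that marks stem cells in several epithelia and basal cells of the mammary gland, stood first. It was at 3.37, 2.93 and 3.15 in tumours, against 8.16 and 8.86 at 8 weeks and 8.95 and 8.84 at 10 months in normal basal cells. Its difference of -5.55 ± 0.30 (adjusted p = 5.71e-10) had the smallest adjusted p of all genes. All 3 tumours were dim, a level at which the arrays give little resolution, and with their values raised to the 40th percentile Lgr5 was at least 27.1-fold lower. The other probe set of Lgr5 differed by -1.23. With the mean of all probe sets of a gene, Lgr5 differed by -3.39 (adjusted p = 8.79e-10), a smaller fall than Selp (-4.80) or Wif1 (-4.65). Tenm2, a teneurin, was at 5.03, 4.48 and 5.15 in tumours, against 9.77, 9.84, 10.64 and 10.45 (-5.29 ± 0.67, adjusted p = 2.34e-05). However, 2 of its 4 probe sets, both dim, had the opposite sign, and the mean of all 4 differed by -1.79 (adjusted p = 4.91e-05). Gfra1 and Gfra2, co-receptors for ligands of the GDNF family, fell by 4.87 ± 0.79 (adjusted p = 0.000179) and 3.79 ± 0.69 (adjusted p = 0.000469). Tumour 3 stood above the other tumours for both, at 5.65 against 3.71 and 4.01 for Gfra1 and at 7.70 against 5.44 and 5.59 for Gfra2, and without it the differences were -5.47 and -4.52. The mean of probe sets gave -3.86 and -3.03 for these 2 genes, -3.39 for Cxcl12, -2.40 for Bcat1 and -2.94 for Fabp4. Reln, the secreted protein reelin, was at 4.81, 4.12 and 3.76 in tumours, against 7.37, 7.71, 8.48 and 8.07 (-3.68 ± 0.55, adjusted p = 0.0001). Sh2d5, Fst, Cxcl12, Wif1, Bcat1, Selp, Sele and Fabp4 completed the 15 largest falls with Krt14 and Col17a1. Normal luminal cells averaged 3.35 (8 weeks) and 2.99 (10 months) for Lgr5, and K5PIK luminal-gate cells were at 4.46 and 3.96. Tenm2 averaged 4.26 and 4.35, Reln 4.18 and 3.68 and Wif1 3.03 and 2.35 in normal luminal cells. Selp (8.27 and 8.12), Sele (4.92 and 4.86) and Fabp4 (8.63 and 8.32) averaged above each tumour there.

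Setting the tumours against basal-gate cells of K5PIK glands, which carry the same alleles, asked which of these differences also separate the tumours from basal cells that carry the mutant. In that comparison 2361 genes (17.3%) were called, 1076 higher in tumours (7.88%) and 1285 lower (9.40%). It shares the tumour arrays with the comparison above, so the values stand side by side and were not tested for agreement. Lgr5 was at 8.42 and 9.14 in K5PIK basal-gate cells and was again 5.63 ± 0.36 lower in tumours (adjusted p = 1.29e-08). Smim38, Ido1 and Arg1 were 5.61 ± 1.29, 6.40 ± 1.32 and 4.58 ± 0.88 higher in tumours than in these cells (adjusted p 0.00557, 0.00257 and 0.0016). Ackr4, a scavenging chemokine receptor, was among the 5 largest falls here, at -4.61 (adjusted p = 5.21e-05), and fell by 3.24 ± 0.50 against normal basal cells. Sh2d5, Bcat1, Selp, Sele and Fabp4 differed by 3.59 to 4.66 from normal basal cells and by 0.75 to 2.11 from K5PIK basal-gate cells, where none was called (adjusted p 0.168 to 0.602). The number of called genes fell to 930 or 1166 when either K5PIK basal-gate array was left out.

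**Figure D3:**
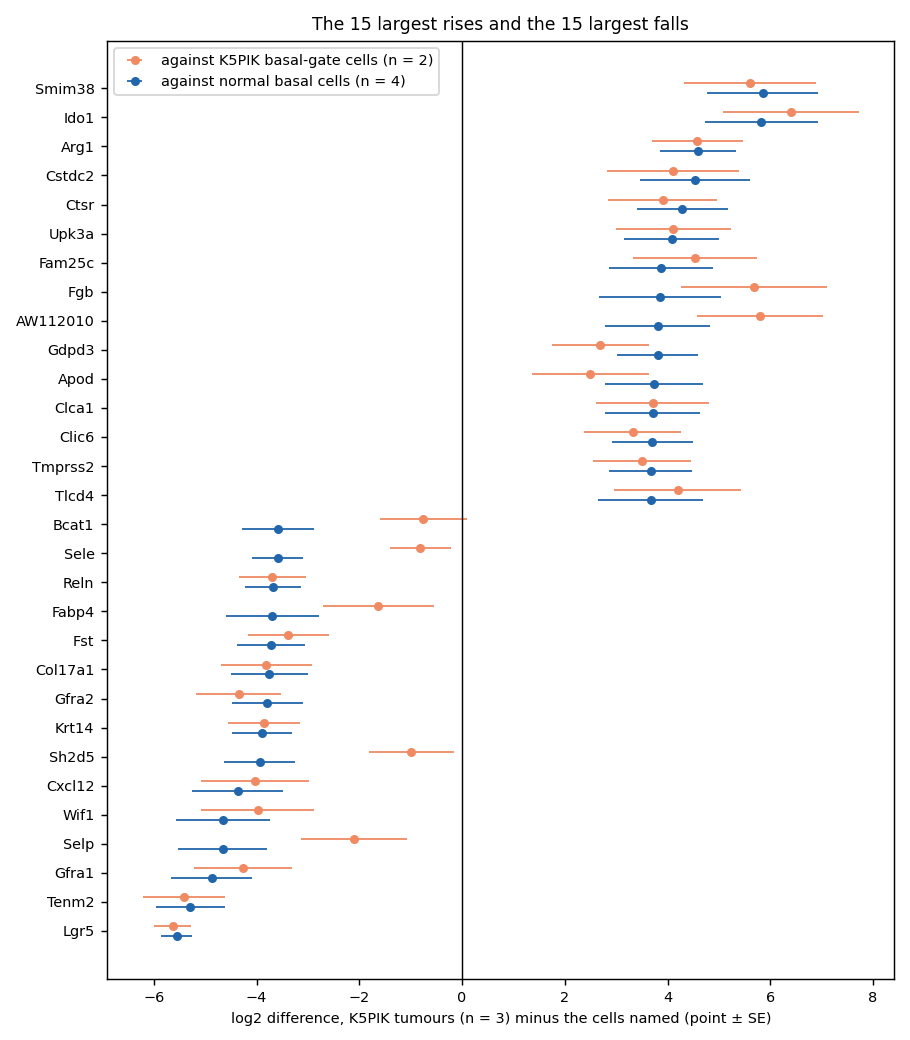
Log2 difference (point) with its SE (bar) for the 15 largest rises and 15 largest falls, for K5PIK tumours (n = 3) minus K5PIK basal-gate cells (n = 2, orange) and minus normal basal cells (n = 4, blue). Lgr5 lies at -5.63 and -5.55, while Bcat1, Sele, Fabp4, Sh2d5 and Selp lie between -0.75 and -2.11 against K5PIK basal-gate cells and between -3.59 and -4.66 against normal basal cells.

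Endothelial transcripts belong beside those falls. Selp and Sele encode the selectins of activated endothelium, and Fabp4 is a fatty acid carrier of adipocytes and capillary endothelium. Of 13 tested endothelial markers 7 fell and none rose, with a median of -1.0, and Pecam1, which encodes CD31, was at 6.10, 6.24 and 6.84 in tumours, against 7.93, 9.02, 7.82 and 8.69 in normal basal cells. Averaged over the list, tumours were at 5.43, 5.33 and 5.79, against 6.28 and 7.31 at 8 weeks and 6.04 and 6.92 at 10 months in normal basal cells and 5.42 and 4.55 in K5PIK basal-gate cells. With this mean as a covariate in the fit, 2028 genes were called, of which 1922 were among the 4102 (46.9%). Selp and Sele kept their calls in that fit (adjusted p 0.0467 and 0.00389) and Fabp4 did not (adjusted p = 0.335). In the comparison with K5PIK basal-gate cells no endothelial marker was called, with a median of 0.50. The part of endothelial RNA in the other falls was not tested, and fewer cells of a type cannot be told apart from less RNA per cell in pooled cells. Immune markers (16 genes) and fibroblast markers (12 genes) had no called member by limma and none (0) at an unadjusted p under 0.05, with medians of 0.14 for both, and Ptprc, the leukocyte antigen CD45, averaged 3.63 in tumours and 3.51 in normal basal cells. In the fibroblast list tumour 3 averaged 7.14, against 5.96 and 5.98 in tumours 1 and 2, and it was also the highest tumour for the matrix list, at 8.30 against 7.53 and 7.16 (means over all members on the array, 24 of them for the matrix list).

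**Figure D4:**
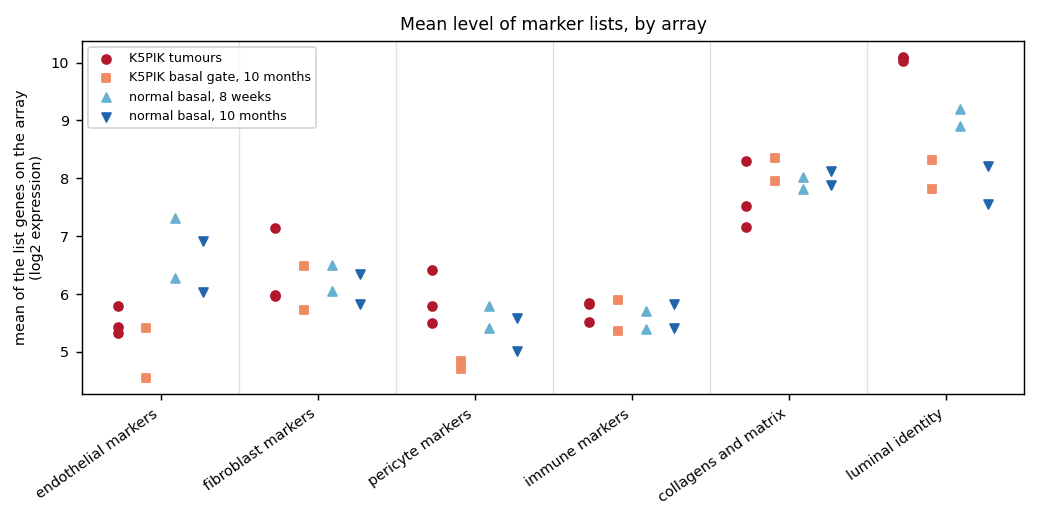
Mean log2 expression (vertical axis) of the genes of 6 lists on each array, for K5PIK tumours (3), K5PIK basal-gate cells (2), and normal basal cells at 8 weeks (2) and 10 months (2). Endothelial markers are lower in the tumours (5.33 to 5.79) than in the normal basal arrays (6.04 to 7.31), tumour 3 is highest for fibroblast markers (7.14), and the luminal list is at 10.03 to 10.10 in tumours and higher at 8 weeks than at 10 months in normal basal cells.

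Wnt signalling keeps basal mammary stem cells dividing, and of 27 tested members of the pathway 13 fell and 1 rose, with a median of -0.86; against the 8-week and 10-month arrays alone 9 and 11 fell. Besides Lgr5, the ligand Wnt10a was at 4.06, 3.58 and 3.82 in tumours, against 6.75, 5.66, 7.71 and 7.80 in normal basal cells, and fell by 3.16 ± 0.62 (adjusted p = 0.000841). The receptor Fzd7 was at 5.21, 5.54 and 5.35 in tumours, against 6.69, 8.48, 6.99 and 7.54, and fell by 2.06 ± 0.30 (adjusted p = 7.89e-05). Inhibitors fell too, so members on both sides of the pathway were lower. Wif1, which binds Wnt ligands outside the cell, was at 4.01, 3.39 and 3.92 in tumours, against 8.16, 8.92, 8.28 and 8.33 (-4.65 ± 0.92, adjusted p = 0.0009), and Dkk3, a member of the Dickkopf family, fell by 3.05 ± 0.55 (adjusted p = 0.000442). Axin2, a transcriptional target of the pathway, was at 3.78, 4.12 and 4.01 in tumours, against 4.51, 5.43, 4.06 and 4.41, a small fall with overlapping groups (-0.63 ± 0.20, adjusted p = 0.021) that was not called against the 10-month arrays (adjusted p = 0.424). The ligand Wnt7b alone rose, at 8.95, 8.49 and 8.37 in tumours, against 6.49, 6.92, 5.92 and 6.43 (2.17 ± 0.47, adjusted p = 0.00172). With the endothelial covariate 5 of the 27 fell and 1 rose. Lgr5 was called in that fit (adjusted p = 1.48e-07) and Wif1 was not (adjusted p = 0.0676).

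In the Notch pathway, which favours luminal fate, 2 ligands fell while a target and a receptor rose. Dll1, a ligand carried by basal cells, was at 6.84, 5.95 and 6.58 in tumours, against 8.78, 8.87, 9.47 and 9.34 in normal basal cells, and fell by 2.66 ± 0.27 (adjusted p = 3.76e-06). Jag1, another ligand, was at 8.51, 8.99 and 9.12 in tumours, against 10.23, 9.91, 11.11 and 10.88, and fell by 1.66 ± 0.30 (adjusted p = 0.000398). The target Hes1 was at 7.34, 7.01 and 7.81 in tumours, against 5.35, 6.25, 5.40 and 6.04, and rose by 1.62 ± 0.35 (adjusted p = 0.00182). None of the 3 overlapped between the groups. Hes1 was at 7.14 and 7.10 in K5PIK basal-gate cells, from which the tumours differed by 0.27 (adjusted p = 0.724). Dll1 and Jag1 were lower in tumours than in those cells too (-2.45 and -1.47, adjusted p 5.83e-05 and 0.00738). The receptor Notch3, which marks luminal progenitors, rose by 1.91 ± 0.46 (adjusted p = 0.00349), though not against the 8-week arrays alone (adjusted p = 0.215). In all, 3 of 18 genes rose (16.7%) and 4 fell (22.2%), against 15.5% and 14.5% of all genes.

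Among 20 genes of TGF-beta, activin and BMP signalling 10 fell and 1 rose, with a median of -0.95. Fst, the activin antagonist follistatin, was at 6.26, 6.54 and 7.48 in tumours, against 10.39, 9.85, 10.90 and 10.80 in normal basal cells, a fall of 3.72 ± 0.66 (adjusted p = 0.000371). The co-receptor Tgfbr3, betaglycan, was at 7.63, 7.76 and 7.82 in tumours, against 9.70, 10.03, 10.48 and 10.56, and fell by 2.46 ± 0.38 (adjusted p = 0.000114). Ltbp2, a matrix protein related to those that hold latent TGF-beta, fell by 2.89 ± 0.52 (adjusted p = 0.000445). Tumour 3 was the highest tumour for Fst and Ltbp2. Tgfb3, a ligand, was the member that rose (1.03 ± 0.38, adjusted p = 0.0473), with overlapping groups, and was not called against the 8-week arrays alone (adjusted p = 0.243).

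Called components of the mutated pathway changed in both directions, with more falls than rises. Of 25 PI3-kinase and AKT genes 7 fell, 2 rose and 16 were not called, and the median of 0.03 shows no shift of the list. Against the 8-week arrays alone 4 fell and 1 rose, against the 10-month arrays alone 7 fell and 2 rose, and with the endothelial covariate 3 fell and 1 rose. Pik3ca was at 7.30, 7.48 and 7.21 in tumours, against 7.76 and 7.89 at 8 weeks and 8.29 and 8.11 at 10 months in normal basal cells, and fell by 0.68 ± 0.14 (adjusted p = 0.00105); the call was lost against the 8-week arrays alone (-0.49, adjusted p = 0.0553), and the sources used here do not say whether its probe set reads the introduced allele. Igf1r, the receptor for insulin-like growth factors upstream of PI3-kinase, was at 5.63, 6.13 and 6.26 in tumours, against 7.64, 7.92, 7.75 and 7.94, and fell by 1.81 ± 0.28 (adjusted p = 0.000129). Phlpp2, an AKT phosphatase, was at 4.94, 5.63 and 5.78 in tumours, against 6.41, 6.38, 6.79 and 6.71, and fell by 1.12 ± 0.17 (adjusted p = 0.000111). The groups did not overlap for any of these. None of 8 insulin-like growth factor genes was called by limma (2 at an unadjusted p under 0.05). FOXO factors, which AKT keeps out of the nucleus, have induced targets of which 2 of 15 rose and 1 fell: Erbb3, the heregulin receptor HER3, was at 9.21, 9.62 and 9.57 in tumours, against 7.50, 7.79, 5.67 and 6.53 (2.60 ± 0.46, adjusted p = 0.00035), and Pdk4 fell by 3.12 ± 0.87 (adjusted p = 0.0105), a call lost without tumour 1 (adjusted p = 0.0582) and with the endothelial covariate (adjusted p = 0.258).

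Ligands and feedback inhibitors of receptor tyrosine kinases were mixed. Of 12 EGF receptor family genes 4 fell and 1 rose. Tgfa, an EGF receptor ligand, was at 6.26, 7.50 and 6.26 in tumours, against 9.20, 8.20, 8.35 and 8.81 in normal basal cells (-1.97 ± 0.46, adjusted p = 0.00325; 0.112 with the endothelial covariate). Btc, betacellulin, was the ligand that rose, to 4.74, 5.39 and 5.31 in tumours, against 3.70, 4.24, 3.37 and 3.39 (1.47 ± 0.31, adjusted p = 0.00146). Of 14 ERK feedback genes 4 fell and 1 rose. Spred1 and Spred2, inhibitors of RAS to RAF signalling, fell by 1.79 ± 0.29 (adjusted p = 0.000164) and 1.00 ± 0.17 (adjusted p = 0.000289), and Dusp4, an ERK phosphatase, rose by 1.31 ± 0.34 (adjusted p = 0.00577; 0.0774 against the 8-week arrays alone).

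Ccnd1, cyclin D1, which drives entry into the cell cycle, was at 11.01, 11 and 11.01 in tumours, against 8.78 and 8.86 at 8 weeks and 9.48 and 9.45 at 10 months in normal basal cells. It rose 3.64-fold (1.86 ± 0.28, adjusted p = 0.000111), kept its call under each alternative, and was at 8.48 and 8.26 in K5PIK basal-gate cells. Normal luminal cells averaged 10.22 (8 weeks) and 10.05 (10 months) for Ccnd1, and K5PIK luminal-gate cells were at 9.66 and 10.27, above the normal basal arrays and below each tumour. Of the 15 G1 cyclins and inhibitors 5 rose and 2 fell. Of 22 mitosis genes 1 rose, Aurka (1.08 ± 0.35, adjusted p = 0.026), and its call was lost without tumour 2 (adjusted p = 0.113), tumour 3 (0.0711), replicate 1 of the 8-week cells (0.103) or replicate 1 of the 10-month cells (0.0729), against the 8-week arrays alone (0.179) and with the endothelial covariate (0.259). The median of the mitosis list was 0.55, and Mki67, the proliferation antigen Ki-67, averaged 5.18 in tumours and 4.57 in normal basal cells (adjusted p = 0.495). Of 19 DNA replication genes Mcm2 was called higher (1.49, adjusted p = 0.00992) and Mcm7 (-0.86, adjusted p = 0.0139) and Pcna (-0.61, adjusted p = 0.00778) lower. No gene of this list was called against the 8-week arrays alone (adjusted p for these 3 genes 0.0856 to 0.249) or with the endothelial covariate (0.0586 to 0.18). The calls of Mcm2 and Pcna were also lost without tumour 1 (0.0569 and 0.0553), and that of Mcm7 without tumour 2 (0.0524), replicate 1 of the 10-month cells (0.0603) or replicate 1 of the 8-week cells (0.0712). Of 16 p53 target genes 4 rose and 3 fell; Ccng1, cyclin G1, was at 7.81, 8.17 and 8.37 in tumours, against 6.57, 7.10, 6.52 and 6.74 (1.38 ± 0.24, adjusted p = 0.000269), and Phlda3, an AKT inhibitor, fell by 1.98 ± 0.43 (adjusted p = 0.00173; 0.0893 with the endothelial covariate).

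Of 19 tested enzymes and regulators of sterol and fatty acid synthesis 10 rose (52.6%) and none fell, with a median of 0.58, and 7 of the 19 were higher against the 8-week arrays alone. Dhcr7, the last enzyme of cholesterol synthesis, was at 8.18, 8.35 and 7.79 in tumours, against 5.39, 6.64, 5.30 and 5.72 in normal basal cells, and rose 5.08-fold (2.34 ± 0.32, adjusted p = 4.29e-05). Elovl6, which lengthens fatty acids, was at 6.70, 7.46 and 7.12 in tumours, against 4.62, 5.92, 4.54 and 5.14, and rose 4.09-fold (2.03 ± 0.26, adjusted p = 2.52e-05). Fdps, which makes farnesyl diphosphate, was at 6.74, 6.93 and 6.42 in tumours, against 4.84, 5.33, 4.36 and 4.66 (1.90 ± 0.30, adjusted p = 0.000157). All 3 tumours lay above all 4 basal arrays for each, and the calls held under each alternative, but by the mean of its probe sets Elovl6 differed by 1.11. Nsdhl, a sterol dehydrogenase, rose by 1.73 ± 0.27 (adjusted p = 0.000141). In normal luminal cells Dhcr7 averaged 7.66 (8 weeks) and 7.23 (10 months). Of 17 glycolysis genes 3 rose and 2 fell. Tpi1, triose phosphate isomerase, rose by 0.91 ± 0.18 (adjusted p = 0.000946), and Slc16a1, the lactate transporter MCT1, was at 7.67, 7.88 and 6.63 in tumours, against 8.84, 9.50, 9.48 and 9.53 (-1.94 ± 0.44, adjusted p = 0.00232; 0.0984 with the endothelial covariate). Of 14 hypoxia genes 3 rose (21.4%) and 1 fell (7.14%), with a median of -0.01. Car12, a carbonic anhydrase, rose by 1.85 ± 0.34 (adjusted p = 0.000501). Bnip3l and Pdk1 rose too, but not against the 8-week arrays alone (adjusted p 0.238 and 0.294). Vegfa, the angiogenic ligand, fell (-1.39 ± 0.35, adjusted p = 0.00474), but not against the 8-week arrays alone (adjusted p = 0.0511) or with the endothelial covariate (adjusted p = 0.13). Car12 was at 8.26 and 7.99 in K5PIK basal-gate cells, from which the tumours differed by -0.02 (adjusted p = 0.985).

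Of 16 interferon response genes 7 rose (43.8%) and none fell, with a median of 0.46, and of 10 genes of class I antigen presentation 5 rose and none fell, with a median of 0.46. Psmb8, an inducible subunit of the immunoproteasome, was at 10.19, 10.02 and 10.09 in tumours, against 7.76, 8.83, 7.47 and 8.24 in normal basal cells, and rose 4.07-fold (2.02 ± 0.32, adjusted p = 0.000132). Its call held under each alternative, but by the mean of its probe sets Psmb8 differed by 1.24. Usp18, which removes the ubiquitin-like ISG15, was at 4.36, 5.79 and 5.63 in tumours, against 3.48, 3.20, 2.87 and 2.99, all dim (2.13 ± 0.50, adjusted p = 0.00332). Ifih1, the RNA sensor MDA5, was at 7.11, 7.22 and 6.96 in tumours, against 5.69, 5.83, 4.86 and 5.76 (1.56 ± 0.40, adjusted p = 0.00535). Psme1, a proteasome activator subunit, was at 9.45, 9.65 and 9.40 in tumours, against 8.87, 9.36, 8.47 and 8.76 (0.63 ± 0.18, adjusted p = 0.0122), and its call was lost without tumour 2 (adjusted p = 0.055), without replicate 1 of the 8-week cells (adjusted p = 0.0653) without replicate 1 of the 10-month cells (adjusted p = 0.0529) or with the 7 arrays fitted alone as 2 groups (adjusted p = 0.0546). Against the 8-week arrays alone, and with the endothelial covariate, 1 gene of each list was called, and Usp18 (adjusted p = 0.0861), Ifih1 (0.0627) and Psme1 (0.188) were not called with that covariate. Normal luminal cells averaged 9.89 (8 weeks) and 9.91 (10 months) for Psmb8, 7.03 and 6.85 for Ifih1, 9.71 and 9.73 for Psme1, and 4.85 and 3.41 for Usp18. The mean of the class I list was 8.92, 9.09 and 8.98 in tumours, against 8.88 to 9.03 on normal luminal arrays. For the interferon list it was 6.36, 6.59 and 6.54 in tumours, against 5.51 to 6.24 on those arrays.

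Since members of both lists rose, the promoters of the lists were searched on both strands for the core of the interferon-stimulated response element, GAAANN followed directly by GAAA, in RefSeq windows of 300 bases (GRCm38.p6) that run from 250 before to 50 after the transcription start. The letters occur in 3.44% of 32851 such windows. They were found in 1 of the 4 interferon genes that rose and had a window, and in 5 of 8 that were not called. In the class I list they were found in 1 of 5 that rose and 1 of 4 that were not called. The 2 windows of genes that rose and hold the match are shown because they hold the only matches among genes of these lists that rose, with the match in capitals, beginning at transcribed base 33 in Ifih1 and 10 in Psme1, where the printed strand shows its reverse complement.
Ifih1, chr2:62646206-62646505, minus strand: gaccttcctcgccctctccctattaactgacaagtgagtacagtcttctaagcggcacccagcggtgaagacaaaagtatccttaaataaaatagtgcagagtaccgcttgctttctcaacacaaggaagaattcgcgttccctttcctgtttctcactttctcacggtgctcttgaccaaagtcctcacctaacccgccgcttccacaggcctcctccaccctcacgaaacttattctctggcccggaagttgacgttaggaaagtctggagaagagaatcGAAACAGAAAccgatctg
Psme1, chr14:55578244-55578543, plus strand: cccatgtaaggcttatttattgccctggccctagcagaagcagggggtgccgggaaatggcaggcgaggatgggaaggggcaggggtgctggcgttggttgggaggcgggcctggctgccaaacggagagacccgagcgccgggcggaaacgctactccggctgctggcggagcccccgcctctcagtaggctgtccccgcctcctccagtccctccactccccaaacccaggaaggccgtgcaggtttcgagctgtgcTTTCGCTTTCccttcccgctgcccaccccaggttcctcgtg
The core of the sterol response element, TCACNCCAC, was in 1.24% of windows and in none of the 7 rising sterol and fatty acid genes that had one, which says only that these letters are not in those windows.

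Of 24 cytokine and chemokine genes 4 fell and 3 rose, and 17 were not called. Cxcl12, the chemokine SDF-1, was at 5.09, 5.40 and 5.86 in tumours, against 9.43, 9.26, 10.17 and 10.43 in normal basal cells (-4.37 ± 0.88, adjusted p = 0.000965). Il33, an alarmin of epithelial nuclei, was at 7.57, 6.82 and 6.54 in tumours, against 3.81, 3.52, 3.42 and 3.37, all dim (3.44 ± 0.80, adjusted p = 0.00279). Neither overlapped between groups, and both lost the call with the endothelial covariate (adjusted p 0.0624 and 0.0917). Adamts1, a protease that cuts matrix proteoglycans, was at 6.25, 6.81 and 6.94 in tumours, against 8.95 and 8.72 at 8 weeks and 10.24 and 10.08 at 10 months (-2.83 ± 0.38, adjusted p = 3.86e-05), and 4 of 21 protease genes fell with none rising (Adamts1, Adamts5, Adamts9 and Adam19). Of 23 collagen and matrix genes 5 fell and none rose, and Col7a1, the anchoring fibril collagen, fell by 1.95 ± 0.51 (adjusted p = 0.00623; 0.0698 against the 8-week arrays alone and 0.215 with the endothelial covariate). No gene of this list was called against the 8-week arrays alone or with the endothelial covariate, and 3 fell against the 10-month arrays alone. Postn, periostin, was at 7.20, 6.85 and 9.75 in tumours, against 9.89, 9.66, 10.06 and 10.22, and tumour 3 lay within the range of the normal basal cells (-2.02, and -2.93 without tumour 3).

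**Figure D5:**
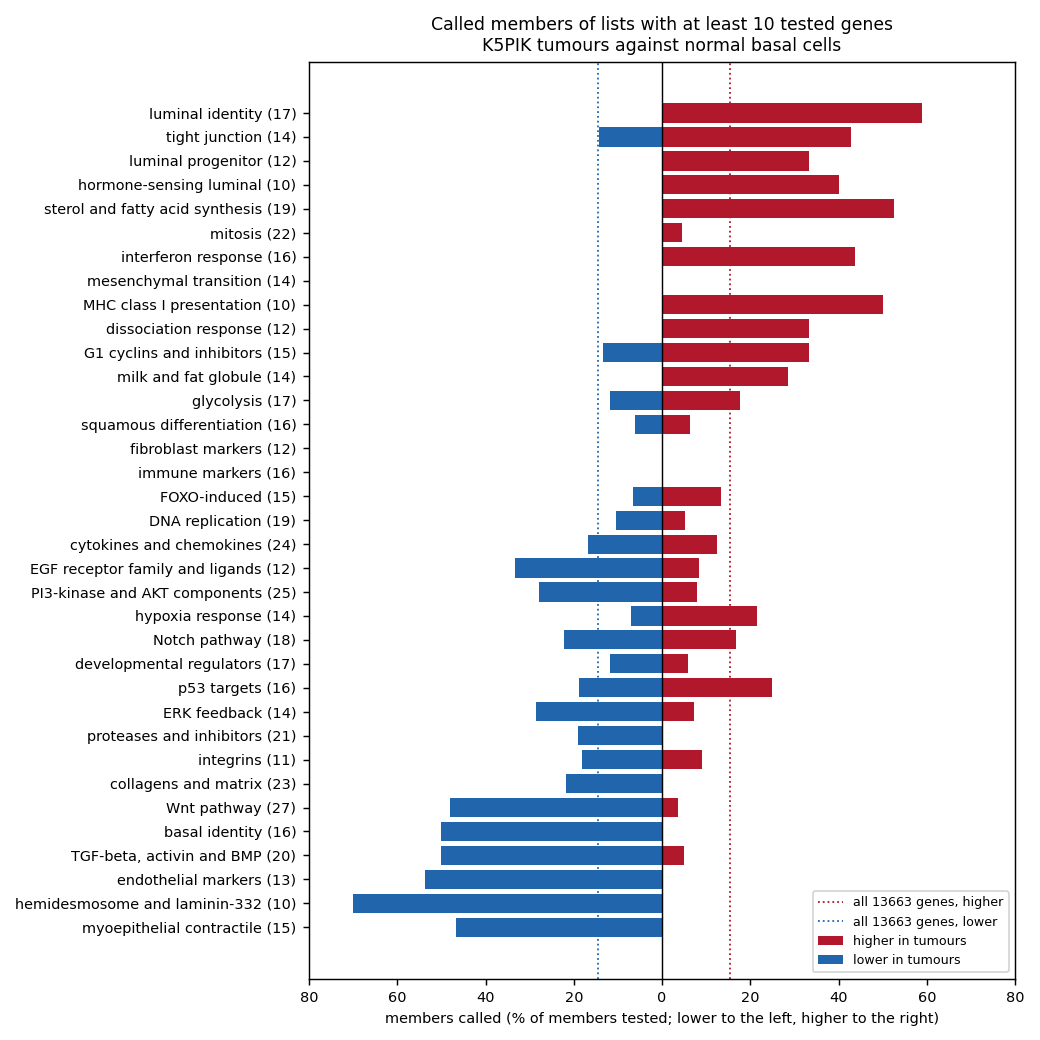
Percent of tested members called higher (red, to the right) or lower (blue, to the left) in K5PIK tumours than in normal basal cells, for the lists with at least 10 tested genes (number in brackets), ordered by the median difference. Dotted lines mark the shares over all 13663 genes, 15.5% higher and 14.5% lower. Luminal identity genes reach 58.8% higher and hemidesmosome genes 70% lower; lists differ in size, so a bar of a short list rests on few genes. List members were chosen with earlier results of these data known.

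Genes of the dissociation response, which sorting can induce, rose in 4 of 12 cases with none falling and a median of 0.41. Hspa1b, an inducible heat shock protein, was at 11.09, 10.99 and 11.05 in tumours, against 9.33, 10.27, 8.92 and 9.28 in normal basal cells (1.59 ± 0.22, adjusted p = 5.63e-05). Their part in the other differences was not tested. The list averaged 10.65, 10.69 and 10.83 in tumours, against 10.10, 10.59, 10.06 and 10.20 in normal basal cells and 10.78 and 10.97 in K5PIK basal-gate cells.

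The 3 tumours resembled each other for most genes, with a median range of 0.47 over the genes tested. A range of at least 2 was found for 133 genes and of at least 4 for 5. The widest was Aoc1, diamine oxidase, at 3.35, 3.11 and 9.95 in tumours 1, 2 and 3, followed by Cdcp3 at 4.99, 5.22 and 9.93. Tumour 2 stood apart for Gsta2, a glutathione transferase, at 4.55, 9.17 and 5.17, and for Ctsj, a cathepsin of the placental family, at 3.14, 7.66 and 3.14. Ctsr, of the same family and among the largest rises, was at 4.75, 8.63 and 8.64, against 3.15, 3.03, 2.94 and 3.10 in normal basal cells. Of the 133 genes tumour 3 was apart and above the others in 57, tumour 2 in 24 and tumour 1 in 12, and tumour 1 was apart and below in 25. The fibroblast list mean of tumour 3 given above is higher as well, and its part in these 57 genes was not tested.

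No gene was called between K5PIK and K8PIK tumours by limma (0% of those tested), with 1986 at an unadjusted p under 0.05 and a smallest adjusted p of 0.102. This does not show that they are alike, since the 7 K8PIK tumours correlated with each other at 0.88 to 0.973 and spread widely. Ido1 was at 10.00 to 10.76 in K5PIK tumours, against a lowest of 3.66, a median of 6.16 and a highest of 10.05 in K8PIK tumours, a difference of 3.48 ± 1.00 (adjusted p = 0.141). Smim38 differed by 3.62 ± 0.97 (adjusted p = 0.122), and Krt14 by -1.67 ± 0.53 (adjusted p = 0.179). Lgr5 was low in both, with a highest K8PIK value of 4.39 and a difference of -0.54 ± 0.27 (adjusted p = 0.373). Leaving out tumour 3 gave 7 called genes.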

How the data were processed

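RNA of sorted mouse mammary cells was hybridised to Affymetrix arrays, and each of the 28 arrays has 45141 probe sets whose levels the authors deposited on a log2 scale. Per the submitters' processing notes R 2.14.0 was used; background correction and normalization between arrays are not given in the sources used here. The values were not rescaled: at any 1 rank the arrays differed by at most 0.558. Of 29449 annotated probe sets, 28898 carried 1 symbol, 551 several (left out), and 15692 had no entry and were left out too; 28689 matched the reference by gene ID. This left 17097 genes, of which 7180 had several probe sets and were read from the brightest (by mean over all arrays). Genes above the 40th percentile on at least 2 arrays were tested (13663). The files name no genome build.

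limma 3.58.1 in R 4.3.3 fitted 1 mean for each of 11 groups over all 28 arrays (17 residual degrees of freedom) and was tested on simulated data; p-values were Benjamini-Hochberg adjusted over all genes tested. Groups come from the labels, which give no batch. The number of arrays limits the precision. Deviations from the group means correlated at -0.06 to 0.07 between same-numbered tumour and normal basal arrays, -0.11 between tumours and K5PIK basal-gate cells, 0.38 between both pairs of 8-week and 10-month normal basal arrays and -0.09 to 0.21 between K5PIK and K8PIK tumours. No label states a pairing, so replicate numbers were not taken as pairs.

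Named genes are the 15 largest rises and 15 largest falls among called genes without overlap, up to 4 called members with the largest change in each of 40 lists (673 genes, 609 on the array, 590 tested; the other list genes are not analysed here), 12 epithelial genes named always, the 5 largest changes each way against K5PIK basal-gate cells and the 10 widest ranges among tumours. Fzd7, Axin2, Wnt7b, Cldn5, Cldn12, Tgfb3, Mki67 and Ptprc were named after their values were seen. The members and lists were chosen with earlier results of these data known. Alternatives were other arrays in the fit, references, filters, probe set rules, normalization, priors, thresholds, a replicate block, marker covariates and leaving out in turn each K5PIK tumour, normal basal and K5PIK basal-gate array. References, the endothelial covariate and the set from the other 21 arrays were added for the lineage genes after seeing the data.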

Additional observations from a re-analysis of the deposited data

Results flagged for a closer look

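Among the 4 normal basal arrays, the highest or lowest value stood apart from the other 3 by more than Dixon's critical value for 4 samples for 8 of 161 named genes (4.97%), about the 1 in 20 that chance gives. Replicate 1 of the 8-week cells was lowest for Lgr5 at 8.16 (the others 8.84 to 8.95) and for Slc16a1 at 8.84 (9.48 to 9.53). Replicate 2 of the 8-week cells was lowest for Sh2d5 at 7.30 (8.79 to 8.99) and highest for Slc2a3 at 6.53 (5.19 to 5.22) and for Ctse at 6.65 (2.96 to 3.48). Replicate 1 of the 10-month cells was lowest for Upk3a at 4.55 (5.17 to 5.27), for Ifih1 at 4.86 (5.69 to 5.83) and for Psme2 at 7.26 (7.77 to 7.85). Except for Ctse, the value set apart still lay on the same side of all 3 tumours as the other normal basal arrays. For Upk3a, Lgr5 and Sh2d5 the rule for the largest changes fixed this, since it took only genes without overlap. Slc16a1, Slc2a3, Ifih1 and Psme2 were named as called list members with large changes. The sides therefore describe these genes and are no check of the values set apart.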

How the results depend on the processing

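The count for tumours against normal basal cells (4102) was 2028 with the endothelial covariate, 1675 against the 8-week cells alone (1625 of them among the 4102), 2436 at an adjusted p under 0.01, 1799 with a 2-fold minimum and 3005 to 3729 with 1 array left out. The other alternatives gave 3712 to 4557, among them an immune covariate chosen after seeing the data (4334) and the fit with the replicate number as a block (4557). Quantile normalization gave 2440 higher and 1829 lower, against 2124 and 1978. The replicate block gave 1933 called genes for K5PIK against K8PIK tumours, 3089 against K5PIK basal-gate cells and 1139 lineage genes; the numbers share no stated pairing, and 4 of the 7 K8PIK tumours have numbers that no other group has. The block gave 2 genes between 10-month and 8-week basal cells, against 0 without it. Leaving out each K5PIK tumour gave 0 to 7 genes against K8PIK tumours, whose own arrays were not left out in turn. Leaving out 1 array gave 930 to 1975 against K5PIK basal-gate cells (2361) and 706 to 760 lineage genes (829). A 4-fold minimum for the lineage set gave 346 and the K8PIK gates 697. Chosen after seeing the data, the 8-week reference gave 475 lineage genes, the endothelial covariate 508, the 10-month reference 831 and a set from the other 21 arrays 737. The causes were not tested. Of 150 called named genes 61 kept the call under every alternative and 89 lost it under at least 1, 70 of them with the endothelial covariate and 65 against the 8-week cells; none changed sign. The fold change, not the log2 difference, moved by over 1.5 times for 53 of the 150 with the endothelial covariate. It did so for 22 against the 8-week and 21 against the 10-month cells, 22 with the mean of probe sets, 12 with the block and 1 to 4 with single arrays left out. Among named genes with more than 1 probe set, 5 called genes had a probe set of the other sign, 1 of them above the dim range (Lama3). With 2 to 4 arrays per group, small differences cannot be told from no difference, and values below about 4 lie near the lower end of what the arrays measure.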
